A study of Mus musculus with 12 samples.

Results

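The 35 genes described here carry cells across the G1/S boundary and copy their DNA, and were followed in mouse embryonic fibroblasts (MEFs) treated with the ABL kinase inhibitor AMN107 and with interferons. They were chosen by name from the parts of the machinery: origin licensing, helicase activation, cyclins with CDK2 and E2F1, the enzymes and clamp of the fork, nucleotide supply, and chromatin copying. All probe sets annotated to a listed gene were taken. The array carried 34 of the 35 genes, on 75 of its 45101 probe sets, and all 34 passed the filter on low signals, among 12192 genes tested. Chaf1a, the large subunit of a histone chaperone that works behind the fork, had no probe set in the annotation and was not measured here.

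RNA was measured on 12 Affymetrix arrays, 2 in each of 6 groups. The groups were DMSO (the vehicle), IFNa (a type I interferon, 6 h), IFNg (the type II interferon, 6 h), AMN107 (nilotinib), AMN107-IFNa and AMN107-IFNg. The labels give the cells as MEFs and the 2 arrays of a group as biological replicates. They state no mouse genotype, passage or number of embryos, and no dose or duration of AMN107.

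In G1, origins of replication are licensed when ORC, CDC6 and CDT1 load the MCM2-7 helicase onto DNA in an inactive ring. Cyclin D with CDK4 or CDK6, and then cyclin E with CDK2, phosphorylate the RB family and so free the E2F factors, which drive transcription of many of the genes listed here. At the start of S phase MCM10, CDC45 and GINS turn the loaded rings into active helicases, primase and the polymerases begin synthesis on the PCNA clamp, and ribonucleotide reductase and the thymidine enzymes supply the building blocks. In fibroblast cultures the transcripts of this machinery follow the share of cells that are cycling. In RNA from whole cultures, fewer cells in late G1 and S and less RNA per cell cannot be told apart.

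The values are linear probe set signals, so they have no unit beyond brightness, and levels of different genes were not compared. Differences are given as log2 of signal + 8.66, with the standard error (SE) of limma's fit over all 12192 genes. "Higher" and "lower" mark a limma p-value under 0.05 after Benjamini-Hochberg adjustment over those genes. The brightest probe set stands for a gene unless another is named. Of 10 fibroblast genes 8 passed the filter, all but Thy1 and Lum. Vim (median signal 3916), Fn1 (562.7), Col1a2 (376.9) and Col3a1 (305.9) were bright. Pdgfrb (46.9), Col1a1 (34.7), Dcn (28.1) and Pdgfra (27.5) were dim. Of markers of other cell types, 3 of 7 for leukocytes passed the filter, 1 of 4 for endothelium, 2 of 5 for epithelium, 3 of 4 for muscle and 3 of 4 for neurons, with the highest medians at 150.2 for Cd14, 42.8 for Kdr, 66.4 for Epcam, 60.8 for Des and 38.0 for Rbfox3. Ptprc (4.58), Pecam1 (9.81), Cdh1 (3.14), Myog (15.5) and Snap25 (2.66) did not pass, where array medians were 20.6 to 22.8. The summed epithelial markers were lower on the AMN107 arrays, at 94.5 to 120.4, than on the others, at 121.5 to 158.0, and the part of this in the results was not tested.

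Some arrays stood apart. On IFNa replicate 2 the 5'/3' signal ratio was 0.0252 for GAPDH and 0.212 for actin, while GAPDH gave 1.074 to 1.161 on the other 11 arrays. Its difference from IFNa replicate 1 had a standard deviation of 0.401 on the log2 scale, against 0.119 to 0.144 between the replicates of the other groups. Differences of the brightest probe sets and counts of member calls that use the IFNa arrays are therefore given with and without it. For lists of related genes the median is given in this way. Further probe sets and counts of arrays that do not overlap use all 12 arrays. LysX is an RNA that is spiked in before labelling. Its signal was 59.6 and 66.2 with DMSO, 81.1 and 45.4 with IFNa, and it ranged from 36.1 to 41.4 across the IFNg arrays and every array with AMN107.

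Averaged over the 3 states (no interferon, IFNa, IFNg), 17 of the 34 members were lower with AMN107 and 7 were higher, where 22% of all genes tested were lower and 26% higher. The median difference of the members was -0.18, against 0.00 for all genes. Leaving out IFNa replicate 2 gave 19 lower and 8 higher (29% and 33.4% of all genes). No call was lost, Cdk2 (-0.18) and Pold1 (-0.13) joined the lower and Ccnd1 (0.13) the higher, and of the calls kept only that of Mcm4 moved by over 1.5 times, from -0.29 to -0.16. The members did not move as one block. Origin licensing, cyclin E, nucleotide supply and Uhrf1 held the lower signals, with Ccne2 at -0.78, Tk1 at -0.75, Uhrf1 at -0.74, Cdc6 at -0.70 and Rrm2 at -0.66. The higher calls lay in the primase and polymerase group, with Rfc5 at 0.50 and Prim1 at 0.40, and in part of the helicase activators. Their share of the members was below that of all genes, so they are not read as a result on these groups. In the first group Rfc4 was lower (-0.24). For 10 members all 6 AMN107 arrays lay below all 6 others (8.12% of all genes did so), and for 2, Prim1 and Rfc5, they lay above (12.6% of all genes).

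**Figure D1:**
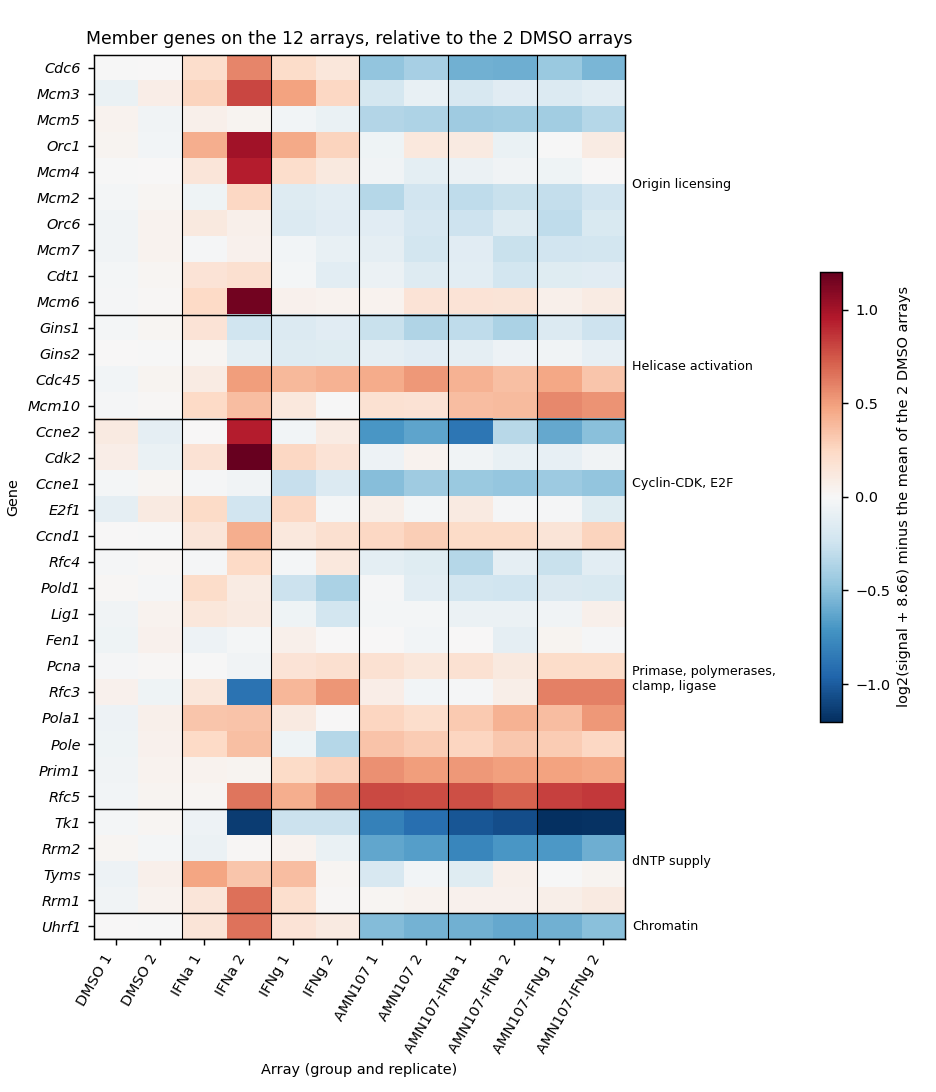
Each row is a member and each column an array; colour gives log2(signal + 8.66) minus the mean of the 2 DMSO arrays. Blue fills the AMN107 columns for Cdc6, Mcm5, Ccne1, Ccne2, Tk1, Rrm2 and Uhrf1, red for Prim1 and Rfc5, and the column of IFNa replicate 2 differs from that of replicate 1 for Mcm4, Mcm6, Cdk2, Ccne2, Rfc3 and Tk1.

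Since many of these genes are E2F targets, the members' promoters were searched on both strands for 4 forms of the E2F site. These were TTTCGCGC, TTTGGCGC, TTTCCCGC and TTTGCCGC. RefSeq promoters of assembly GRCm38.p6 were used, 250 bases before to 50 after each start. Of the 35 members 29 matched an entry. Mcm4, Gins1, Gins2, Ccne2, Ccnd1 and Pole did not. An E2F form stood in the promoter of 13 of the 29 members (44.8%), in 13 of their 34 start sites (38.2%), against 744 of 32851 promoters in all (2.26%). The 4 promoters below are shown because they hold an E2F form and belong to members called lower in at least 2 of the 3 AMN107 comparisons. Rrm2, Tk1, Ccne1 and Mcm2 were called lower as often but had no E2F form, so theirs are not shown. Capitals mark the E2F matches, and each is written 5' to 3' on the gene's strand.
Cdc6, chr11:98907901-98908200, plus strand: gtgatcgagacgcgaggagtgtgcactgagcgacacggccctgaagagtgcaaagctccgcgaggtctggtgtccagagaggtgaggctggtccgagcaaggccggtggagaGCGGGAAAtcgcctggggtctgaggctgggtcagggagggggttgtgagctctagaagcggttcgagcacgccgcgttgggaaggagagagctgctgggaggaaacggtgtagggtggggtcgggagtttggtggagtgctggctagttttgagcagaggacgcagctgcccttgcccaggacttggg
Mcm5, chr8:75109259-75109558, plus strand: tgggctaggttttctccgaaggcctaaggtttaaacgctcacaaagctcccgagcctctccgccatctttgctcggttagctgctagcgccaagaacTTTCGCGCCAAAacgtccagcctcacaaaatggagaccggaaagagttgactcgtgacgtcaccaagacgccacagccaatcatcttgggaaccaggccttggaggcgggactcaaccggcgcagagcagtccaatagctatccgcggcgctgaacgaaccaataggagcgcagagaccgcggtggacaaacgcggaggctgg
Uhrf1, chr17:56304063-56304362, plus strand: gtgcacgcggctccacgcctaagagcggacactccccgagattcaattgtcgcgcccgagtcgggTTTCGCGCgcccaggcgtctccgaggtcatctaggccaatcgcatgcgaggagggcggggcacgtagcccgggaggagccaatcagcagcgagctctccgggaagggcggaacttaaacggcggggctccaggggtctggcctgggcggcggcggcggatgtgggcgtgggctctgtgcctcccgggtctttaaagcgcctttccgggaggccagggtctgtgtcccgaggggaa
Mcm3, chr1:20820263-20820562, minus strand: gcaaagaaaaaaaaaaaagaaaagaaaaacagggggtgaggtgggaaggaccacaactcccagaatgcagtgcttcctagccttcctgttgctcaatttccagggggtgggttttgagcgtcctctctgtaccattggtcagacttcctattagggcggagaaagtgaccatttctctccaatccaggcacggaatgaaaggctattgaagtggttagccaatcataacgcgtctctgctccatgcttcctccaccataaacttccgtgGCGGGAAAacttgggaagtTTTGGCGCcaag

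In Mcm5 the capitals hold 2 overlapping matches, TTTCGCGC on the plus strand and TTTGGCGC on the other. In Mcm3 TTTCCCGC, read on the opposite strand, and TTTGGCGC both lie just after the start. Cdc6 has TTTCCCGC on the opposite strand at base -138 from the start, and Uhrf1 has TTTCGCGC at base -185 of the second of its start sites. A match was found in 7 of the 14 members with a promoter that were lower in the average, in 1 of 6 that were higher and in 5 of 8 that were not called. CCAAT, the NF-Y motif, stood in 20 of the 34 member promoters (58.8%) and in 37.4% of all. TTTGAA, the core of the CHR element of cell cycle promoters, stood in 3 (8.82%) and in 17.9% of all. These counts describe letters in a window and say nothing of binding. Rrm2, Tk1, Ccne1, E2f1, Prim1 and Rfc5 had no E2F form in the windows listed.

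Origin licensing was the group with the most lower members. In the average 9 of its 10 genes were lower, all but Mcm6, where 22% of all genes were. The 10 differences ran from -0.70 to -0.13 (median -0.28). By state, 3 of 10 were lower without interferon, 9 with IFNa and 3 with IFNg, and none was higher in any state. Of all genes 14%, 14.7% and 5.76% were lower in these states. The test of the difference between states called 0 of the 10 for either interferon. Leaving out IFNa replicate 2 gave 9 again in the average and with IFNa (29% and 17.9% of all genes). Averaged over the 2 states that do not use the IFNa arrays, 8 of 10 were lower (median -0.15), with 26.7% of all genes lower and 35.9% higher, and Orc1 gave -0.14 (limma adjusted p = 0.0703).

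Cdc6, the ATPase that helps ORC load the MCM ring, gave signals of 352.6 and 355.9 with DMSO, 410.8 and 535 with IFNa, 413.8 and 389.6 with IFNg, 253.5 and 266.5 with AMN107, 234.3 and 233.1 with AMN107-IFNa, and 258.1 and 239.5 with AMN107-IFNg. All 6 AMN107 arrays lay below the 6 others. The difference was -0.43 (SE 0.12, limma adjusted p = 0.0162) without interferon, -0.98 (adjusted p = 0.000326) with IFNa and -0.67 (adjusted p = 0.00295) with IFNg. Without IFNa replicate 2 the value with IFNa was -0.79 (adjusted p = 2.54e-06).

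Mcm5, a subunit of the helicase ring, went from 2463 and 2336 with DMSO, 2499 and 2460 with IFNa and 2348 and 2268 with IFNg to 1883 and 1849 with AMN107, 1783 and 1791 with AMN107-IFNa and 1797 and 1889 with AMN107-IFNg. The groups did not overlap, and replicates lay close together. Its differences were -0.36, -0.47 and -0.32 in the 3 states (SE 0.06, limma adjusted p = 0.0016, 0.000524 and 0.00434), with -0.48 (adjusted p = 1.42e-05) for IFNa without IFNa replicate 2. With its probe sets averaged the calls without interferon and with IFNg were lost (-0.057, adjusted p = 0.608, and -0.038, adjusted p = 0.787). A second probe set gave -0.25, -0.62 and -0.37, and another, dim one, at means of 51.2 with DMSO and 72.6 with AMN107, gave 0.44, 0.0037 and 0.58.

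Mcm3, another ring subunit, gave 950.3 and 1056 with DMSO, 1211 and 1756 with IFNa, 1407 and 1190 with IFNg, and 863.8 to 941 on the 6 AMN107 arrays. The AMN107 arrays lay below the others, but the gap to DMSO was small: -0.15 (SE 0.15, limma adjusted p = 0.457) without interferon, against -0.70 (adjusted p = 0.00709) with IFNa and -0.51 (adjusted p = 0.0382) with IFNg. Without IFNa replicate 2 the value with IFNa was -0.43 (adjusted p = 0.00167).

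Mcm2 gave 791.7 and 815.3 with DMSO, 774.9 and 954.3 with IFNa, 722.9 and 735.3 with IFNg, 633.4 and 684.7 with AMN107, 646.7 and 665.7 with AMN107-IFNa, and 657.2 and 682 with AMN107-IFNg. Its 6 AMN107 arrays lay below the others, with differences of -0.28 (SE 0.10, limma adjusted p = 0.0483) without interferon, -0.39 (adjusted p = 0.0173) with IFNa and -0.12 (adjusted p = 0.431) with IFNg. The value with IFNa was -0.24 (adjusted p = 0.0169) when IFNa replicate 2 was left out. A second Mcm2 probe set gave 0.16, 0.04 and -0.19, and with both averaged the calls without interferon and with IFNa were lost (-0.059, adjusted p = 0.589, and -0.17, adjusted p = 0.15).

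Mcm4 and Orc1, a ring subunit and the largest ORC subunit, were lower with IFNa by amounts that moved with IFNa replicate 2. Mcm4 read 1647 on IFNa replicate 1, 2870 on replicate 2 and between 1371 and 1727 elsewhere. Its difference with IFNa was -0.60 (SE 0.19, limma adjusted p = 0.0374), and -0.20 (adjusted p = 0.0223) without that array. Orc1 gave 100.8 and 95.55 with DMSO, 135.6 and 206.8 with IFNa, 137.6 and 120.2 with IFNg, and 92.63 to 107.7 on the AMN107 arrays. Its difference with IFNa was -0.71 (SE 0.16, adjusted p = 0.0104), and -0.42 (adjusted p = 0.00843) without that array. A second, dimmer Orc1 probe set read the other way, at 64.3 and 71.5 with IFNa and 72.5 and 75.1 with AMN107-IFNa. The Orc1 call with IFNa was lost with both averaged (-0.30, limma adjusted p = 0.066) and with array weights (0.0592). For both genes the AMN107 arrays overlapped those of DMSO, and the differences without interferon were -0.08 and 0.03. Cdt1, Orc6 and Mcm7, the remaining loader, ORC subunit and ring subunit called lower in the average, lay between -0.18 and -0.19 there, and between -0.17 and -0.20 without IFNa replicate 2.

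**Figure D2:**
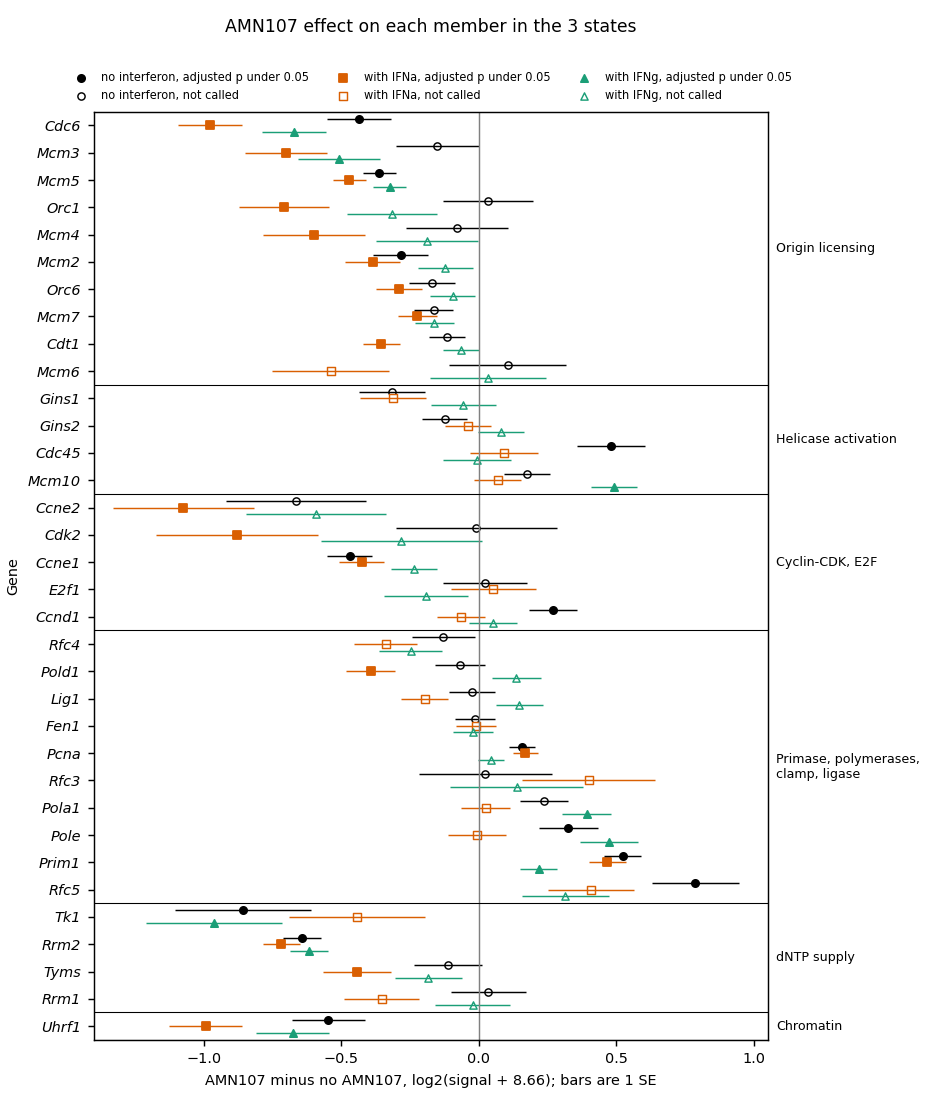
Points give the AMN107 difference of each member in log2(signal + 8.66), without interferon (circles), with IFNa (squares) and with IFNg (triangles); bars are 1 SE and filled symbols have a limma adjusted p under 0.05. Cdc6, Mcm5, Rrm2 and Uhrf1 are filled to the left of 0 in all 3 states, and Prim1 is filled to the right of 0 in all 3.

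The G1/S regulators split. In the average 2 of 5 were lower, both of them E cyclins, the partners of CDK2, and none was higher (22% and 26% of all genes). Leaving out IFNa replicate 2 gave 3 lower and 1 higher (29% and 33.4% of all genes). These counts are not read as a result on the group. Ccne1 gave 500.2 and 519.7 with DMSO, 503.5 and 493.6 with IFNa, 419 and 453.2 with IFNg, 354.4 and 378.1 with AMN107, 371.7 and 366.2 with AMN107-IFNa, and 373.8 and 364.3 with AMN107-IFNg. The 6 AMN107 arrays lay below the 6 others, by -0.47 (SE 0.08, limma adjusted p = 0.00202), -0.43 (adjusted p = 0.00433; -0.44 without IFNa replicate 2) and -0.23 (adjusted p = 0.0714) in the 3 states, and its other probe set gave -0.28, -0.54 and -0.45.

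Ccne2 read 367.7 and 316.2 with DMSO, 342.2 and 664.2 with IFNa, 333.4 and 365.5 with IFNg, 207.2 and 216.7 with AMN107, 183.6 and 268.6 with AMN107-IFNa, and 219.1 and 238.8 with AMN107-IFNg. The groups did not overlap, but the high IFNa replicate 2 widened its SE to 0.25. The differences were -0.66 (limma adjusted p = 0.0654) without interferon, -1.07 (adjusted p = 0.0118) with IFNa and -0.59 (adjusted p = 0.133) with IFNg. Without IFNa replicate 2 the value with IFNa was -0.60 (adjusted p = 0.00542), and in a fit without both IFNa arrays the other states gave -0.66 (adjusted p = 0.000309) and -0.59 (adjusted p = 0.00124).

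Ccnd1, cyclin D1, which links growth signals to the RB family, gave 2071 and 2045 with DMSO, 2276 and 2791 with IFNa, 2247 and 2349 with IFNg, 2446 and 2521 with AMN107, 2408 and 2413 with AMN107-IFNa, and 2294 and 2473 with AMN107-IFNg. It was higher with AMN107 without interferon (0.27, SE 0.09, limma adjusted p = 0.0363), and gave -0.06 (adjusted p = 0.637) with IFNa, which was 0.083 without IFNa replicate 2, and 0.05 (adjusted p = 0.721) with IFNg. A second probe set gave 0.34, 0.32 and 0.37.

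E2f1, the founding E2F factor, gave 128.5 and 151.3 with DMSO, 164.6 and 117.3 with IFNa, 167.2 and 137.5 with IFNg, and 125.5 to 151.4 on the AMN107 arrays. Its replicates lay as far apart as its groups, and the differences were 0.02, 0.05 and -0.19 (SE 0.15, limma adjusted p = 0.919, 0.831 and 0.417). When IFNa replicate 2 was left out the value with IFNa was -0.18 (adjusted p = 0.295). Cdk2, the kinase partner of cyclin E, gave 155.8 and 138.6 with DMSO, 166.4 and 417.4 with IFNa, 175.8 and 166.2 with IFNg, and 136.3 to 151.7 with AMN107. Its call with IFNa (-0.88, SE 0.29, adjusted p = 0.0498) rested on IFNa replicate 2, without which it was -0.24 (adjusted p = 0.0636).

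**Figure D3:**
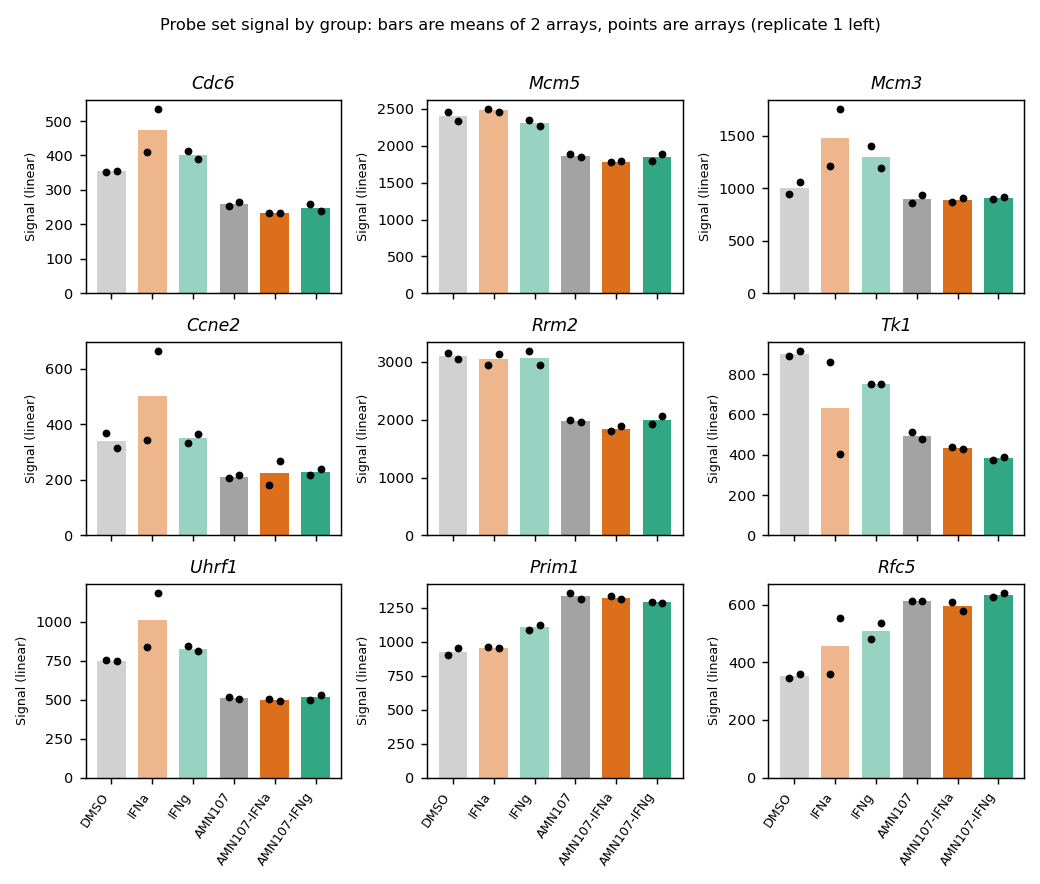
Bars give the mean signal of each group on a linear axis from 0 and points the 2 arrays. In the 7 genes from Cdc6 to Uhrf1 the AMN107 groups (darker bars) are lower than the groups without it, in Prim1 and Rfc5 they are higher, and single IFNa arrays stand apart for Cdc6, Mcm3, Ccne2, Tk1, Uhrf1 and Rfc5.

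Of the 4 nucleotide supply genes 3 were lower in the average, with and without IFNa replicate 2, and none was higher. Of all genes 22% were lower and 26% higher with that array, and 29% and 33.4% without it. Rrm2, the S phase subunit of ribonucleotide reductase, gave 3149 and 3039 with DMSO, 2949 and 3132 with IFNa, 3182 and 2934 with IFNg, 2001 and 1956 with AMN107, 1795 and 1897 with AMN107-IFNa, and 1921 and 2061 with AMN107-IFNg. The highest AMN107 array lay well below the lowest of the 6 others, in each state by a similar amount. The differences were -0.64, -0.72 and -0.62 (SE 0.07, limma adjusted p = 0.000111, 9.46e-05 and 0.000212), with -0.67 (adjusted p = 1.45e-06) for IFNa without IFNa replicate 2. With its probe sets averaged the value without interferon was -0.26 (adjusted p = 0.0435), and one of them read the other way.

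Tk1, cytosolic thymidine kinase, the salvage enzyme of S phase, gave 889.4 and 913.7 with DMSO, 861.7 and 404.8 with IFNa, 750.8 and 751.5 with IFNg, 511.2 and 478 with AMN107, 437.8 and 427.2 with AMN107-IFNa, and 373.1 and 390.1 with AMN107-IFNg. Only IFNa replicate 2 lay among the AMN107 arrays. The differences were -0.86 (SE 0.25, limma adjusted p = 0.0223) without interferon, -0.96 (adjusted p = 0.0214) with IFNg and -0.44 (adjusted p = 0.217) with IFNa, the last becoming -0.98 (adjusted p = 9.68e-08) without that array. Rrm1, the large reductase subunit, was not called in any state (average -0.11, and -0.028 without IFNa replicate 2). Tyms, thymidylate synthase, was lower in the average (-0.25) and with IFNa (-0.44, and -0.51 without IFNa replicate 2). Only 1 of its 4 probe sets passed the filter, and it was dim, at 16.6 to 31.4.

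Uhrf1, which brings the maintenance DNA methyltransferase to newly copied DNA, gave 754.5 and 748.5 with DMSO, 836.3 and 1184 with IFNa, 844.8 and 810.1 with IFNg, 520.3 and 503.2 with AMN107, 502.5 and 489.1 with AMN107-IFNa, and 501 and 528.3 with AMN107-IFNg. The AMN107 arrays lay in a narrow band below all others. The differences were -0.55 (SE 0.13, limma adjusted p = 0.00996), -0.99 (adjusted p = 0.000614) and -0.68 (adjusted p = 0.00535) in the 3 states, with -0.74 (adjusted p = 1.17e-06) for IFNa without IFNa replicate 2. With its probe sets averaged the value without interferon changed sign, to 0.12 (adjusted p = 0.579), and that with IFNa was -0.41 (adjusted p = 0.0874).

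The enzymes of the fork were split. Of 10 genes for primase, polymerases, clamp, clamp loader and Okazaki fragment enzymes, 5 were higher in the average (Pcna, Pola1, Pole, Prim1 and Rfc5), 1 was lower (Rfc4, -0.24) and Rfc3, Pold1, Fen1 and Lig1 were not called. Of all genes 26% were higher, so the share of the 10 is not read as a result on the group. With IFNa replicate 2 left out there were 5 higher and 2 lower (33.4% and 29% of all genes). The median of the 10 was 0.16 (0.067 without that array), and the same 5 genes were higher in the average over the 2 states without the IFNa arrays.

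Prim1, the catalytic subunit of primase, gave 899.4 and 955.1 with DMSO, 957 and 950.6 with IFNa, 1089 and 1122 with IFNg, 1356 and 1316 with AMN107, 1335 and 1310 with AMN107-IFNa, and 1295 and 1281 with AMN107-IFNg. Its 6 AMN107 arrays lay above the 6 others. The difference was 0.52 (SE 0.07, limma adjusted p = 0.000354) without interferon, 0.47 (adjusted p = 0.000961; 0.46 without IFNa replicate 2) with IFNa and 0.22 (adjusted p = 0.0462) with IFNg. The call with IFNg was lost with the replicate number as a block (adjusted p = 0.0601), with quantile normalization (0.118), with no filter (0.0694) and with the probe sets averaged (0.0803). Its other probe set gave 0.21, 0.12 and 0.14.

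Rfc5, a subunit of the loader that places PCNA on DNA, gave 344.8 and 360.3 with DMSO, 358.5 and 553.6 with IFNa, 480.5 and 536.4 with IFNg, 614.7 and 614.4 with AMN107, 609.7 and 579.3 with AMN107-IFNa, and 627.4 and 639.9 with AMN107-IFNg. The AMN107 arrays lay above the others, and the IFNg arrays lay between them and DMSO. The difference was 0.79 (SE 0.16, limma adjusted p = 0.00406) without interferon, 0.41 (adjusted p = 0.0827) with IFNa and 0.31 (adjusted p = 0.193) with IFNg. Without IFNa replicate 2 the value with IFNa was 0.72 (adjusted p = 5.34e-06).

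Pcna, the sliding clamp, was bright on every array, at 4574 and 4647 with DMSO, 4603 and 4488 with IFNa, 5171 and 5263 with IFNg, 5229 and 5057 with AMN107, 5240 and 4993 with AMN107-IFNa, and 5388 and 5369 with AMN107-IFNg. Without interferon the AMN107 arrays were higher by 0.16, with an SE of 0.05 and a limma adjusted p of 0.0258, and with IFNa by 0.17 (adjusted p = 0.023; 0.15 without IFNa replicate 2), while with IFNg, where the IFNg arrays were themselves high, the difference was 0.04 (adjusted p = 0.555). Pola1 and Pole, the catalytic subunits of polymerases alpha and epsilon, were each higher with IFNg (0.39 and 0.47), and Pole also without interferon (0.33).

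Among the 4 helicase activators, Mcm10 and Cdc45 were higher in the average (0.25 and 0.19), Gins1 was lower (-0.23) and Gins2 was not called. Of all genes 26% were higher and 22% lower, so these counts are not read as a result on the group. Mcm10, a scaffold that helps start the helicase, was called only with IFNg (0.49), and Cdc45, part of the active helicase, without interferon (0.48) and, where IFNa replicate 2 was left out, with IFNa (0.30). The Cdc45 call in the average had a limma adjusted p of 0.0485 and was kept in 8 of 22 alternative settings.

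By state, AMN107 without interferon left 7 members lower and 6 higher of 34, where 14% of all genes were lower and 20.7% higher. With IFNa it left 16 lower and 2 higher (14.7% and 11.3% of all genes), and 17 lower and 4 higher without IFNa replicate 2 (17.9% and 16.7%). With IFNg it left 6 lower and 4 higher (5.76% and 13.4%). A fit without both IFNa arrays, whose spread otherwise enters every test, gave 11 lower and 8 higher without interferon (22.9% and 32.2% of all genes) and 13 lower and 5 higher with IFNg (14.5% and 25.9%). The test of the difference between states called 0 of 34 members for either interferon (limma, adjusted p under 0.05). Of all genes 0.205% were called with a more negative AMN107 difference with IFNa and 0% with a more positive one, and 0.894% and 0.131% with IFNg. At an unadjusted p under 0.05, 9 members had a more negative difference with IFNa and 0 a more positive one (15.8% and 7.33% of all genes), and 2 and 1 with IFNg (7.62% and 5.01%). Leaving out IFNa replicate 2 gave 0 called for IFNa (0.656% of all genes in either direction). Leaving out IFNa replicate 1, so that the array with the low 5' signal stood alone, gave 18, where 47.3% of all genes were called. Without both IFNa arrays 6 were called for IFNg, where 13% of all genes were.

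With 2 arrays a group, single arrays decided part of these calls. Fewer members were called without interferon when a DMSO or an AMN107 array was left out. So it was with IFNa without either AMN107-IFNa array, and with IFNg without IFNg replicate 2 or either AMN107-IFNg array. Without both IFNa arrays 18 were called with IFNg (14.5% of all genes lower and 25.9% higher). Over all genes the calls without interferon also fell without a DMSO array or AMN107 replicate 1. That drop was thus not particular to the members. With 1 array left out, the count for the average moved over a narrower range than those of the 3 states. Of 48 calls on the members given on every array, 22 held in every setting run, among them all 4 for Rrm2, both for Rfc5, and those of Cdc6 with IFNa and with IFNg. Averaging a gene's probe sets ended or reversed 11 of the 48, array weights 7, no filter 7, quantile normalization 4 and median centring 3. The array weights came out equal for the 2 arrays of each group (0.149 for both IFNa arrays), so they could not set IFNa replicate 2 apart. The Cdc6 and Tk1 calls without interferon were lost when any 1 DMSO or AMN107 array was left out (limma adjusted p up to 0.0941 and 0.114), and that of Tk1 with IFNg without any 1 array of its groups (up to 0.127). The Uhrf1 call without interferon was lost without DMSO replicate 1 or AMN107 replicate 2 and, at an adjusted p of 0.579, when a gene's probe sets were averaged, and that with IFNg without AMN107-IFNg replicate 1 (0.0565). The calls of Mcm3 and Prim1 with IFNg and of Mcm2 without interferon were lost without any 1 of the 10 arrays outside the IFNa group (adjusted p up to 0.226, 0.215 and 0.232), and so were those of Mcm4 with IFNa and in the average (up to 0.16 and 0.106). Ccnd1 lost its call without any 1 of those arrays other than AMN107-IFNg replicate 1 (up to 0.168), and Pcna, without interferon, when any 1 DMSO or AMN107 array was left out (up to 0.15). Without AMN107-IFNa replicate 1 the calls with IFNa of Ccne2, Mcm3, Mcm2 and Pcna were lost (adjusted p = 0.117, 0.0586, 0.11 and 0.17), and without replicate 2 those of Mcm2 and Orc1 (0.0689 and 0.0786). The Mcm5 call with IFNg was lost without 1 array of its groups (0.0575).

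Different probe sets of a gene did not always read alike, and how far apart they lay differed by state. For 22 members with several tested probe sets there were 32 beside the brightest. Their sign matched that of the brightest for 16 in the comparison without interferon, 16 with IFNa and 24 with IFNg, and the median gap was 0.23, 0.24 and 0.11 on the log2 scale. With AMN107 and no interferon 7 of the 32 read more than 0.5 above the brightest one and 2 more than 0.5 below it. With IFNa 7 did so above and 0 below, and with IFNg 1 above and 0 below.

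The 7 above were dimmer probe sets of Uhrf1, Rrm2, Mcm3, Rrm1, Mcm5, Ccnd1 and Fen1, named after their values were seen. The one of Rrm2 gave 278 and 275.1 with DMSO, 308.4 and 282 with IFNa, 539.8 and 556.7 with IFNg, 432.4 and 392 with AMN107, 387.2 and 330.4 with AMN107-IFNa, and 375.2 and 397.7 with AMN107-IFNg. It was low on the DMSO and IFNa arrays and highest with IFNg alone, so AMN107 gave 0.56 without interferon but -0.50 with IFNg. That of Uhrf1 read 50.29 and 48.26 with DMSO and 133.9 and 129.5 with IFNg, and gave 0.78 and -0.54 in the same comparisons. For Mcm3 these differences were 0.89 and -0.30, for Rrm1 0.999 and 0.022, for Ccnd1 0.92 and 0.073, and for Fen1, the flap endonuclease of Okazaki fragments, 0.52 and 0.036. With IFNa the same probe sets gave 0.27 for Rrm2, 0.18 for Uhrf1 and 0.73 for Mcm3. Those of Rrm1, Ccnd1 and Fen1 gave 1.27, 0.73 and -0.16 with IFNa. Only the dim Mcm5 probe set, described above, stayed over 0.5 above the brightest one with IFNg.

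The 2 below belonged to Mcm3 and Cdc45. That of Mcm3 read 77.5 and 77.9 with DMSO and 44.4 and 40.2 with AMN107 (-0.76), and that of Cdc45 gave -0.20. Further probe sets of Mcm4 and Mcm6 lay just short of 0.5 below, at -0.58 and -0.39. With IFNa they gave -0.95 and -0.80, and with IFNg -0.46 and -0.12.

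In the comparison with IFNg the brightest and these dimmer probe sets of Rrm2, Uhrf1 and Mcm3 thus read below 0 alike. Without interferon and with IFNa they read in opposite directions. Without interferon both passed the test for Rrm2 and Uhrf1. LysX was high with DMSO and on IFNa replicate 1 and low on the IFNg and AMN107 arrays. On IFNa replicate 2 it was 45.4. There the dimmer probe sets of Rrm2, Mcm3 and Rrm1 read 282, 53.6 and 107.3, near or below their DMSO signals. Those of Uhrf1, Mcm5, Ccnd1 and Fen1 read 105.3, 82.2, 1384 and 549.2, above their DMSO signals. That of Mcm5 stayed low with IFNg, at 46.97 and 47.72. The part of LysX in these differences was not tested. Another Rrm2 probe set gave -0.70, -1.21 and -0.79 in the 3 states.

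**Figure D4:**
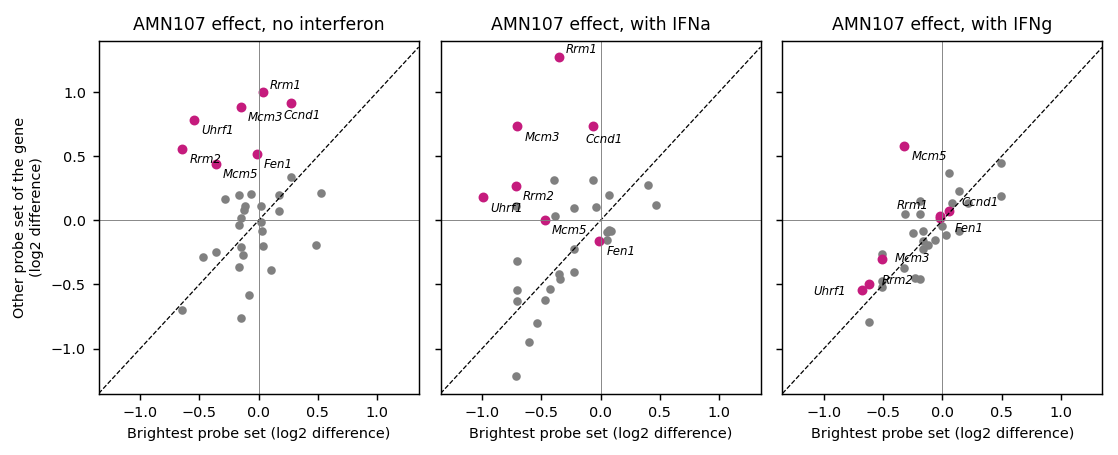
Each point is a further probe set of a member, with the AMN107 difference of the gene's brightest probe set on the x axis and its own on the y axis, both in log2(signal + 8.66); the dashed line marks equal values. The 7 coloured ones, named by gene, read more than 0.5 above the line without interferon. With IFNa all of them but that of Fen1 also lie above it, and with IFNg all but that of Mcm5 lie near it.

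Interferon alone changed few members in a way that held. IFNa against DMSO left 8 of 34 higher and 0 lower (12.9% and 4.7% of all genes), among them Orc1 (0.72), Mcm6 (0.70), Mcm3 (0.54) and Cdc6 (0.40). Without IFNa replicate 2 there were 3, Orc1 (0.43), Pola1 (0.34) and Mcm6 (0.24), with 6.33% of all genes higher and 1.1% lower, while the count was 0 or 1 when any 1 of the 10 arrays of other groups was left out and 21 without IFNa replicate 1, where 58.6% of all genes were called. Mcm6, a ring subunit, read 986.3 and 1006 with DMSO, 1176 and 2233 with IFNa and 1026 to 1120 on the IFNg and AMN107 arrays, so its rise lay mostly on IFNa replicate 2. These comparisons share the IFNa arrays with the AMN107 effect with IFNa, and the DMSO arrays with that without interferon, so they are not independent of them.

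IFNg against DMSO left Pcna (0.18, SE 0.05, limma adjusted p = 0.0408) and Prim1 (0.25, adjusted p = 0.0438) higher and 0 lower (6.12% and 2.93% of all genes). Both calls were lost when any 1 of the 10 arrays outside the IFNa group was left out (0 called), while without both IFNa arrays 12 members were called (9 higher and 3 lower), where 30.6% of all genes were. With quantile normalization 0 were higher and 2 lower. In the presence of AMN107, IFNa left 0 of 34 members called by limma, with 1 at an unadjusted p under 0.05, where 0.254% of all genes were higher and 0% lower. IFNg left 1, Mcm10, which went from 417.1 and 414.3 with AMN107 to 549.8 and 537.5 with AMN107-IFNg (0.38, SE 0.08, adjusted p = 0.0404; 2.49% of all genes higher). That call was also lost without any 1 of the 10 arrays outside the IFNa group, and without both IFNa arrays 3 members were called (7.17% of all genes).

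**Figure D5:**
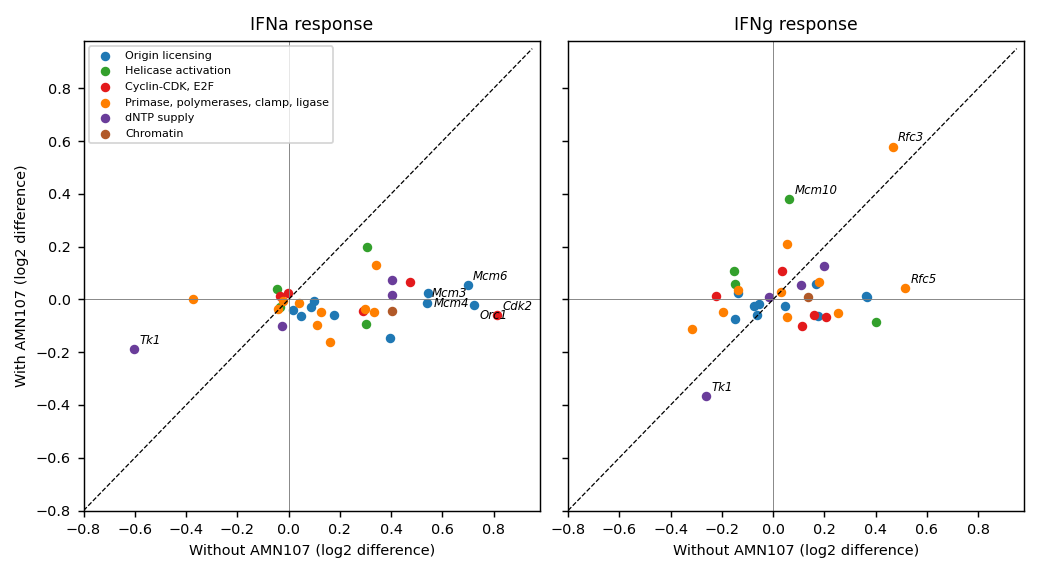
Points are members coloured by role, with the interferon response without AMN107 on the x axis and with AMN107 on the y axis, both as log2 differences; the dashed line marks equal responses. With IFNa the points spread along x up to 0.81 (Cdk2, mostly from IFNa replicate 2) and stay within 0.20 of 0 on y; with IFNg Mcm10 (0.38) and Rfc3 (0.58, not called) lie highest on y.

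Lists of related genes were read against the 22% of all genes that were lower and the 26% that were higher in the average. Of 40 tested replication genes outside the list, 11 were lower and 10 higher with AMN107, with a median of 0.00, so their shares lay near those of all genes. With IFNa replicate 2 left out their median was 0.044. Among them Msh6, a mismatch repair factor, was lower by -0.56 and Clspn, claspin of the replication checkpoint, by -0.54, while Orc4, an ORC subunit, was higher by 0.65. Of 13 other genes of the nucleotide pool 2 were lower and 2 higher (median 0.041, and 0.051 without IFNa replicate 2). Dck, deoxycytidine kinase, went from 551.9 to 686.5 on the 6 arrays without AMN107 to 320.6 to 436.2 with it (-0.75, SE 0.08, limma adjusted p = 2.79e-05). Samhd1, which degrades dNTPs, was higher with AMN107 in the average (0.30), by 0.59 without interferon and 0.34 with IFNg. Its signals were 196.8 and 229.5 with DMSO, 428.4 and 475.2 with IFNa, and 447.2 and 441.3 with AMN107-IFNa. Without AMN107 it rose by 1.06 with IFNa and by 1.78 with IFNg.

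Other G1/S regulators gave 6 lower and 5 higher of 15 (median 0.014, and -0.0081 without IFNa replicate 2). E2f2 was lower (-0.58), and Tfdp2, a partner of E2F proteins, and Cdk4, the cyclin D kinase, were higher (0.54 and 0.51). Of 14 cell cycle inhibitors and pocket proteins 3 were lower and 2 higher (median 0.0088, and 0.033 without that array). Gadd45a, a stress-induced growth arrest gene, went from 87.8 to 186.7 on the 6 arrays without AMN107 to 258.2 to 327.5 with it (1.17, SE 0.08, limma adjusted p = 1.45e-06), and Rb1, the retinoblastoma protein, from 24.8 to 32.1 to 47.3 to 60.1 (0.77, SE 0.06, adjusted p = 4.24e-06). Cdkn1a, the CDK inhibitor p21, was lower with IFNg than with DMSO (-0.40). Its signals were 520.9 and 546.8 with DMSO, 515.1 and 412 with IFNa, and 416.3 and 389.6 with IFNg. The 6 AMN107 arrays gave 355.2 to 397.1, below both DMSO arrays and overlapping those of IFNg.

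Of 24 mitosis genes 11 were lower and 2 higher with AMN107 in the average (median -0.18). Without IFNa replicate 2 the median was -0.11. Nusap1, a spindle protein, gave -0.41 and Mki67, the proliferation marker, -0.39, while Aurka, a mitotic kinase, was higher by 0.55. By state 3 of 24 were lower and 2 higher without interferon (14% and 20.7% of all genes), 9 and 2 with IFNa (14.7% and 11.3%) and 3 and 0 with IFNg (5.76% and 13.4%). The median of the 24 with IFNa was -0.27, and -0.17 with IFNa replicate 2 left out. All 14 genes of these lists that were given for their size in the average kept their sign and call without that array, and Orc4 moved by 0.20, the widest shift among them.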

How the data were processed

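The authors deposited one table of linear MAS5 probe set signals (intensity) for 12 arrays, per the submitters' processing notes, which give no version or scaling. Among the 45101 probe sets were 64 controls. The platform annotation named 1 gene for 34945, more than 1 for 932 and no gene for 9160. A RefSeq table (GRCm38.p6) held the gene IDs of 34741, and 0 symbols changed. Signals were taken as log2(signal + 8.66), the mean 25th percentile, with no further normalization. Probe sets above the array median on at least 2 of 12 arrays were kept (21249), and the brightest stood for each of 12192 genes. A mean per group was fitted with limma 3.58.1 in R 4.3.3 (lmFit, eBayes with a trend), with 10 two-sided contrasts, each adjusted by Benjamini-Hochberg over all genes. The number of arrays, 2 per group, limits the precision.

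The members, gene lists and tests were chosen with earlier results of these data known. A member was given on every array where an AMN107 effect, its average or an interferon response was called and at least 0.5 in size, and Ccnd1, Ccne1, Ccne2, E2f1, Pcna, Mcm2 and Rrm2 in any case; other list genes were named where called and among the 3 largest of their list. Mcm5 was added with its promoter. Alternatives were the normalization, pseudocount, filter, probe set choice, array weights, replicate number as a block, and leaving out arrays.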

Additional observations from a re-analysis of the deposited data

Results flagged for a closer look

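For 2 genes of the mitosis list the AMN107 difference itself changed between states by limma's interaction test. Aurka, a mitotic kinase, read 340.8 and 330.1 with DMSO, 577.3 and 644.4 with IFNg, 641.7 and 681.4 with AMN107, and 619.6 and 555.4 with AMN107-IFNg. Its interaction of AMN107 and IFNg was -1.02 (SE 0.14, adjusted p = 0.0095). Cdc20, an activator of the anaphase-promoting complex, read 1248 and 1377 with DMSO, 1736 and 1740 with IFNg, 1912 and 1930 with AMN107, and 1604 and 1502 with AMN107-IFNg, an interaction of -0.71 (SE 0.11, adjusted p = 0.0158). In both genes the DMSO arrays were lowest of these 4 groups. No member of the G1/S and replication list was flagged in this way.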

How the results depend on the processing

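In the average AMN107 effect 24 called members became 21 to 28 when 1 array was left out and 22 to 26 under the other settings, with 23 in the fit with the replicate number as a block. Called members without interferon (13) gave 5 to 19 when 1 array was left out. With IFNa (18) they gave 9 with array weights and 8 to 23 when 1 array was left out. With IFNg (10) they gave 18 with array weights, 18 without both IFNa arrays and 4 to 18 when 1 array was left out. The IFNa response without AMN107 (8) gave 1 after quantile normalization, 13 after median centring, 4 unfiltered, 5 under a filter at the 75th percentile, 0 under array weights and 0 to 21 when 1 array was left out. The IFNg response without AMN107 (2) gave 0 with no filter, 5 with the mean of a gene's probe sets, 1 with the replicate block, 9 with array weights, 12 without both IFNa arrays and 0 to 12 when 1 array was left out. With AMN107 it (1) gave 0 with median centring, with the mean of probe sets and with the replicate block, 4 with array weights, 3 without both IFNa arrays and 0 to 3 when 1 array was left out. The interaction with IFNa (0) gave 0 to 18 when 1 array was left out, and that with IFNg (0) gave 5 with array weights, 6 without both IFNa arrays and 0 to 6 when 1 array was left out. Calls over all genes moved with the setting too, so these counts are not read as a result on the members alone. For AMN107 without interferon they were 2529 higher and 1708 lower as deposited, and 3962 and 2948 with array weights. The cause was not tested.

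Differences that changed sign under some setting were those of Cdk2, E2f1, Orc1, Uhrf1, Ccnd1 and Tk1. Without interferon, Cdk2 gave 0.047 with median centring and -0.088 to 0.071 when 1 array was left out, E2f1 -0.18 with quantile normalization and -0.087 to 0.13, Orc1 -0.17 with quantile normalization, -0.083 with the mean of probe sets and -0.056 to 0.12, and Uhrf1 0.12 with the mean of probe sets. With IFNa, Ccnd1 gave 0.33 with the mean of probe sets and -0.21 to 0.083 when 1 array was left out, E2f1 -0.065 with the mean of probe sets and -0.18 to 0.28, and Tk1 -0.98 to 0.094. With IFNg, E2f1 gave 0.0017 with the mean of probe sets and Ccnd1 -0.0019 to 0.11 when 1 array was left out. In the average E2f1 gave -0.11 to 0.038.

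Scaling moved the split of all genes. Without interferon limma called 2529 higher and 1708 lower as deposited, 1685 and 2639 after quantile normalization, and 2991 and 1208 after centring on the median (members 6 and 7, 4 and 11, 7 and 6). The median over all genes there was 0.02, -0.08 and 0.07. For the average the split was 3174 and 2683, and 2556 and 3506 with quantile normalization (members 7 and 17, 6 and 19), and with IFNg 1632 and 702, and 1226 and 985 (members 4 and 6, 3 and 7). For the IFNa response it was 1567 and 573, 468 and 580 after quantile normalization, and 2963 and 328 after centring on the median, which shifted the median of all genes from 0.04 to -0.05 and 0.12. The labels do not say whether replicate numbers pair the arrays. Over 15 pairs of groups the deviations correlated at -0.14 to 0.31, with 4 above 0.1 and 3 below -0.1. The highest was that of AMN107 with AMN107-IFNa. With 2 arrays a group this cannot decide whether some groups were paired. The replicate block changed the count of calls by over 1.5 times only where stated above, and among the 48 calls on named members it ended 1, that of Prim1 with IFNg. The average without the IFNa arrays was chosen after seeing the data.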
